A study of Mus musculus with 9 samples.

Results

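The genes described here encode subunits and assembly factors of mitochondrial complex I, the NADH:ubiquinone oxidoreductase. They were chosen by symbol: every probe set that names exactly 1 gene with a symbol starting in Nduf was taken, and a gene with several was read from the one with the highest mean. This gave 43 genes from 48 probe sets, out of 19938 genes named alone by a probe set. The 43 genes fall into 6 core subunits, 28 accessory subunits, 7 assembly factors of the Ndufaf series, and Ndufa4 and Ndufa4l2, which carry the symbol without being counted as complex I subunits today. All 43 passed the filter on low values. Ndufb1, Ndufb4 and Ndufaf8 had no such probe set and were not analysed here.

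Complex I takes electrons from NADH, passes them along a chain of iron-sulfur clusters in its peripheral arm to ubiquinone, and pumps protons across the inner mitochondrial membrane through its membrane arm. The peripheral arm consists of an N module, which oxidises NADH, and a Q module, which reduces ubiquinone. The membrane arm has a proximal and a distal part, and its proton-pumping core subunits are encoded by mitochondrial DNA. Core subunits are those with bacterial counterparts, accessory subunits surround and stabilise them, and assembly factors help to build the complex without being part of it. Skeletal muscle fibres depend on the respiratory chain for sustained contraction, and mitochondria are known to multiply as myoblasts differentiate.

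The study measured total RNA of mouse primary myoblasts (strain Balb/c, wild type, from skeletal muscle) on Affymetrix arrays, in 3 groups of 3 arrays. The groups were cycling myoblasts (0 days), myotubes of day 2 and myotubes of day 5, all of the same strain and genotype and with no other treatment in the labels. The titles of the myotube samples speak of differentiating medium, but the protocol of all samples lists 1 medium with serum and basic fibroblast growth factor. Nothing says whether the 3 arrays of a group came from separate cultures or animals, so the spread between them may be technical.

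Values are log2 RMA values. They had been normalized for each time point apart, so effects of normalization and of time cannot be told apart. Each change is therefore given as deposited and also on a common scale, on which all 9 arrays were quantile-normalized to one distribution. A gene was called where the limma adjusted p was under 0.05 with the same sign on both scales. Identical values on all 3 arrays of a group are frequent in the deposited table (14 of the 43 genes at 0 days, 23 at day 2 and 17 at day 5), so standard errors and p-values are too small and sizes carry more weight than p. All 6 measured markers of cycling myoblasts were called lower and all 7 myotube markers higher at both later times. Of the markers of other cell types, 2 of 6 for fibroblasts (Dcn, Lum), 3 of 5 for adipocytes (Adipoq, Fabp4, Cidec), 4 of 4 for endothelium (Pecam1, Cdh5, Kdr, Tek) and 4 of 5 for leukocytes (Ptprc, Adgre1, Csf1r, Cd14) lay under the array median on all 9 arrays. The other 7 (Pdgfra, Thy1, Col1a1, Col1a2, Plin1, Lpl, Cd68) did not, and their highest group mean was that of Lpl in cycling myoblasts (6.37, against an array median of 4.33 to 4.35). The fibroblast list averaged 4.15 at 0 days, with 3.98 in day 2 and 3.95 in day 5 myotubes. The part of such cells in the results was not tested.

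The 43 genes were also searched for short motifs of factors known to act on nuclear genes of the respiratory chain, in the RefSeq windows of assembly GRCm38.p6 from 250 bases before to 50 bases after the gene start. A window was listed for 38 of the 43. The motif of the nuclear respiratory factor NRF1 was searched as GCGCANGCG, that of YY1 as AANATGGC and that of the estrogen-related receptors as TNAAGGTCA, each on both strands. The YY1 letters include ATG and the NRF1 letters may overlap their own reverse complement. A gene was counted where any of its windows held the letters. Of the 38 genes, 9 (23.7%) held the NRF1 letters, against 7.03% of the 27025 genes with a window. The YY1 letters were in 13 (34.2%), against 6.96%, and the receptor letters in 0, against 1.43%. In all, 20 of the 38 genes held NRF1 or YY1 letters, against 13.2% of all genes with a window, and 2 (Ndufb10 and Ndufs6) held both. These are matches of letters, and binding was not measured.

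A set of 6 upstream windows is shown because they stand before the genes on which the values below turn, with the matched letters in capitals. Ndufs8 (chr19:3912775-3913024, minus strand), Ndufb5 (chr3:32736813-32737062, plus strand) and Ndufaf3 (chr9:108567437-108567686, minus strand) carry YY1 letters, and Ndufa11 (chr17:56717512-56717761, plus strand), Ndufs5 (chr4:123718187-123718436, minus strand) and Ndufaf4 (chr4:24897833-24898082, plus strand) carry NRF1 letters. Of these, Ndufaf4 was not called at either time. The sequences run 5′ to 3′ along the gene and end at the base before its start.
Ndufs8: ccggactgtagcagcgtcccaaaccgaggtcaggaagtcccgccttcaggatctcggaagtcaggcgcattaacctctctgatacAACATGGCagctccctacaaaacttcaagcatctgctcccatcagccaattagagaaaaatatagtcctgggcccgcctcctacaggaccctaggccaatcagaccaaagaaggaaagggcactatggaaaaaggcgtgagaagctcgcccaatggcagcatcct
Ndufb5: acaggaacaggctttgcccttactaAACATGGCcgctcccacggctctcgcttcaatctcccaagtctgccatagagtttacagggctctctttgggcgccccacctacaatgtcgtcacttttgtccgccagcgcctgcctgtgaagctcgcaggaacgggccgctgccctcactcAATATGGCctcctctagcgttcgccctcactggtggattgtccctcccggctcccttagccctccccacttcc
Ndufaf3: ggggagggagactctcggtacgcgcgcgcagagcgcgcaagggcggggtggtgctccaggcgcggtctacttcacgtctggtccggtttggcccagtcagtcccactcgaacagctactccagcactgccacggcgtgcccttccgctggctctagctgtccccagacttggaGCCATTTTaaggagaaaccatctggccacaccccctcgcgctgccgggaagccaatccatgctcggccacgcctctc
Ndufa11: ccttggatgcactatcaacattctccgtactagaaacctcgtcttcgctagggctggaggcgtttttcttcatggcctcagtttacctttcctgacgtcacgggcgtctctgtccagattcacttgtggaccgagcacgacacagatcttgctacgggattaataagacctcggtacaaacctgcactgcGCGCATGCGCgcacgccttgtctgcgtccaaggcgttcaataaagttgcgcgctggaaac
Ndufs5: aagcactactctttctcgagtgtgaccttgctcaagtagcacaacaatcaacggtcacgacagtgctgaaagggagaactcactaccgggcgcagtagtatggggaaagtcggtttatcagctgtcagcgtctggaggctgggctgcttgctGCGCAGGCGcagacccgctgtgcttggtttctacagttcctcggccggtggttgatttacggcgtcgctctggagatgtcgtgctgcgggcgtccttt
Ndufaf4: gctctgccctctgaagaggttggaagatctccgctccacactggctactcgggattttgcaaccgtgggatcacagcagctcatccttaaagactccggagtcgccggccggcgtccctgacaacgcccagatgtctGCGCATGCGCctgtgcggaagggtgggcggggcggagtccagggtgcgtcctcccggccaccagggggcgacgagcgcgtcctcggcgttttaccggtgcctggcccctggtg

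The match lay at or past the gene start in several windows, and 4 such sites of strongly changed genes are shown as 30 bases each. They belong to Ndufb10 (chr17:24724407-24724436, minus strand) and Ndufa6 (chr15:82354249-82354278, minus strand) with NRF1 letters, and to Ndufb8 (chr19:44555393-44555422, minus strand) and Ndufs4 (chr13:114388045-114388074, minus strand) with YY1 letters. Whether the ATG in these YY1 letters is the start codon was not tested.
Ndufb10: gtcacctttctGCGCAGGCGtagaggtccc
Ndufa6: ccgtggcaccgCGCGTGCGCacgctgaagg
Ndufb8: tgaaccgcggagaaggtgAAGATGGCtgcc
Ndufs4: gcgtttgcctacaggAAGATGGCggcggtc

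After 2 days, nearly all complex I genes stood higher in myotubes than in cycling myoblasts. On both scales 39 of the 43 were called higher, where 42.8% of all 16582 genes tested were, and 1 was called lower, where 37.4% of all genes were. The median log2 fold change (log2FC) of the 43 genes was 0.68 and 0.84 (as deposited, then on the common scale, here and below), against -0.014 and 0.087 over all genes tested. A change of at least 2-fold upwards on both scales was called for 8 of the 43, against 6.04% of all genes, and 0 were at least 2-fold lower, against 8.41%. In bulk RNA of a culture, more cells of a type and more RNA per cell cannot be told apart.

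After 5 days the picture against cycling myoblasts was alike in direction and depended more on the scale. On both scales 33 of the 43 genes were called higher, against 29.7% of all genes, and 1 was called lower, against 38.1%. The median log2FC was 0.60 and 1.27, against -0.37 and 0.17 over all genes. Again 8 genes were at least 2-fold higher on both scales, against 4.44% of all genes, and 0 at least 2-fold lower, against 12.3%. On the common scale alone 30 of the 43 were at least 2-fold higher, and the share of all genes on that scale was not counted. The day 2 and day 5 comparisons share the cycling arrays and are not independent of each other.

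The rank of a gene within its array needs no scale, and the common scale is built from these ranks. The median gene of the 43 lay at the 86.3rd percentile of the probe sets of its array in cycling myoblasts, at the 92.7th at day 2 and at the 94.8th at day 5. Day 2 myotubes ranked 41 of the 43 genes above their rank in cycling myoblasts, against 56.7% of all genes tested. Day 5 myotubes ranked 42 of the 43 above the cycling rank, against 59% of all genes. They ranked 40 of the 43 above the day 2 rank, against 54.6% of all genes. Only Ndufa4l2 lay under the array median on all arrays of a group, in cycling myoblasts and at day 2.

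**Figure D1:**
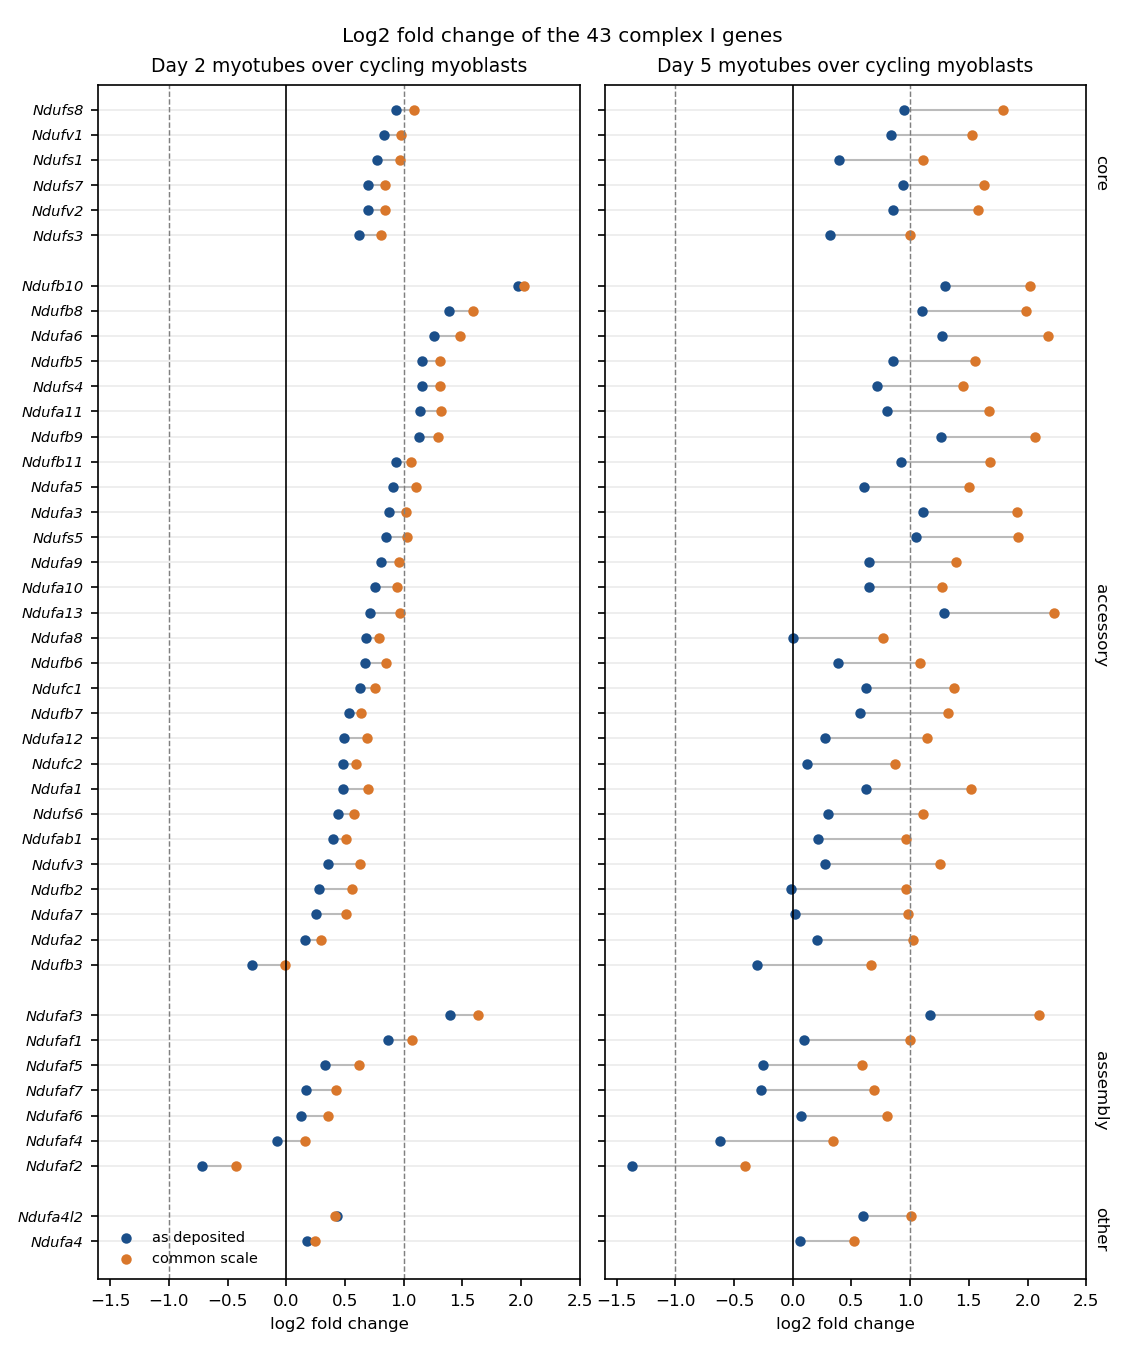
Log2 fold change of each of the 43 genes (rows, grouped as core, accessory, assembly and other) for day 2 myotubes over cycling myoblasts (left) and day 5 myotubes over cycling myoblasts (right), as deposited (blue) and on the common scale (orange); dashed lines mark a 2-fold change. Most points lie right of 0, with Ndufb10 farthest right at day 2 (1.97 and 2.02) and Ndufaf2 left of 0 on both scales in both panels, and the gap between the scales is wider at day 5.

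The core subunits were all higher in myotubes. All 6 were called higher at day 2 (median log2FC 0.74 and 0.90) and all 6 at day 5 (median 0.85 and 1.55), with limma adjusted p of at most 1.3e-05 as deposited at day 2 and 3.47e-06 at day 5. None reached 2-fold on both scales by the probe set with the highest mean. A second probe set of Ndufs3 lay 1.03 and 1.17 above cycling myoblasts at day 2, over 2-fold on both scales. For every core subunit the 3 arrays of either myotube group lay above the 3 arrays of cycling myoblasts, with no overlap. The share of all genes tested that separated in this way was not counted. As deposited, 45.8% of all genes passed as higher and 47.5% as lower at day 2, and 29.7% and 65.5% at day 5. The separation is therefore not shown to be particular to core subunits. Identical values on all 3 arrays were held by 47.9% of probe sets at 0 days, 60.2% at day 2 and 56.7% at day 5.

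In the N module, Ndufv1, which binds NADH and the flavin that accepts its electrons, had deposited values of 9.10, 9.11 and 9.11 in cycling myoblasts, 9.94 on all 3 arrays in day 2 myotubes and 9.98, 9.93 and 9.93 in day 5 myotubes. For Ndufv1 the log2FC over cycling myoblasts was 0.83 ± 0.0153 in the deposited values and 0.98 ± 0.0175 on the common scale at day 2, and 0.84 ± 0.0153 in the deposited values and 1.53 ± 0.0175 on the common scale at day 5. The 2 myotube groups lay on 1 level as deposited and the day 5 arrays moved above day 2 on the common scale. Ndufv2, its partner with an iron-sulfur cluster, had 8.78, 8.97 and 8.99 in cycling myoblasts, 9.60, 9.60 and 9.64 in day 2 myotubes and 9.78, 9.78 and 9.75 in day 5 myotubes. Ndufv2 had a fitted log2FC of 0.70 ± 0.0545 in the deposited values and 0.84 ± 0.0406 on the common scale in day 2 myotubes, and 0.86 ± 0.0545 in the deposited values and 1.58 ± 0.0406 on the common scale in day 5 myotubes. The first cycling array was the low one, and the cycling arrays spread more than the others. Ndufs1, the large subunit holding several iron-sulfur clusters, had 9.67 on all 3 arrays in cycling myoblasts, 10.44, 10.44 and 10.44 in day 2 myotubes and 10.06 on all 3 arrays in day 5 myotubes. Its log2FC was 0.78 ± 0.000256 in the deposited values and 0.97 ± 0.0173 on the common scale at day 2, and 0.40 ± 0.000256 in the deposited values and 1.11 ± 0.0173 on the common scale at day 5. As deposited, Ndufs1 was highest at day 2, and on the common scale at day 5.

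In the Q module, Ndufs3, a core subunit in contact with both modules of the peripheral arm, had 9.91, 9.93 and 9.93 in cycling myoblasts, 10.55, 10.55 and 10.53 in day 2 myotubes and 10.25, 10.25 and 10.22 in day 5 myotubes. For Ndufs3 the log2FC over cycling myoblasts was 0.62 ± 0.0122 in the deposited values and 0.81 ± 0.0134 on the common scale at day 2, and 0.32 ± 0.0122 in the deposited values and 1.00 ± 0.0134 on the common scale at day 5. By this probe set Ndufs3 had the smallest day 5 difference among the core subunits. Its second probe set gave 0.66 and 1.35 at day 5, above the values of Ndufs1. Ndufs7, which carries the last iron-sulfur cluster before ubiquinone, had 9.02, 9.12 and 9.12 in cycling myoblasts, 9.79, 9.79 and 9.77 in day 2 myotubes and 10.04, 10.02 and 10.02 in day 5 myotubes. Ndufs7 had a fitted log2FC of 0.70 ± 0.0272 in the deposited values and 0.84 ± 0.0162 on the common scale in day 2 myotubes, and 0.94 ± 0.0272 in the deposited values and 1.63 ± 0.0162 on the common scale in day 5 myotubes. Its 3 groups were in the order of time with no overlap on the deposited scale. Ndufs8, whose upstream window holds YY1 letters, carries iron-sulfur clusters next to it and had 7.76, 7.93 and 7.91 in cycling myoblasts, 8.79, 8.82 and 8.79 in day 2 myotubes and 8.82, 8.82 and 8.82 in day 5 myotubes. Its log2FC was 0.93 ± 0.0445 in the deposited values and 1.09 ± 0.0359 on the common scale at day 2, and 0.95 ± 0.0445 in the deposited values and 1.79 ± 0.0359 on the common scale at day 5. Both myotube groups sat close together as deposited, about 1 log2 unit over cycling myoblasts.

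**Figure D2:**
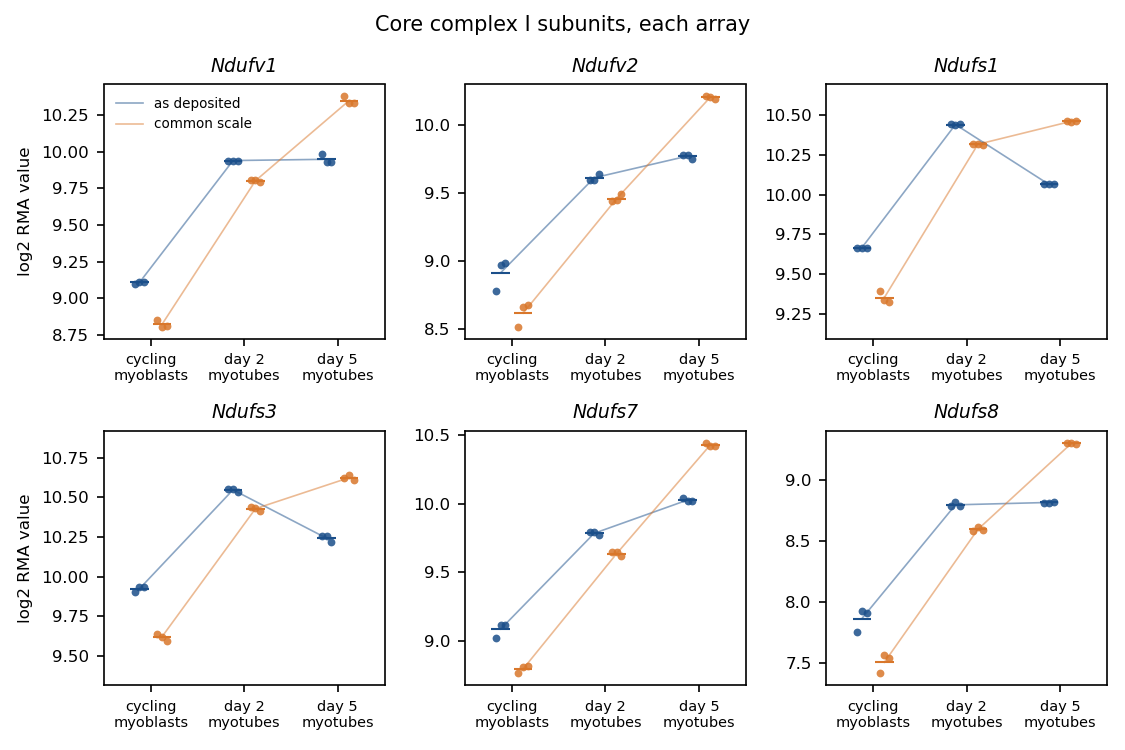
Log2 RMA values of the 6 core subunits on each array (points, horizontal bars are group means) in cycling myoblasts, day 2 and day 5 myotubes, as deposited (blue) and on the common scale (orange). On both scales all myotube arrays lie above all cycling arrays in every panel, while the order of day 2 and day 5 changes with the scale for Ndufs1 and Ndufs3.

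Among the 28 accessory subunits, 27 were called higher at day 2 (median log2FC 0.70 and 0.90), 7 of them at least 2-fold. At day 5, 23 were called higher (median 0.62 and 1.38), again 7 at least 2-fold, and 0 lower. The members that passed 2-fold at day 2 were Ndufs4, Ndufa6, Ndufa11, Ndufb5, Ndufb8, Ndufb9 and Ndufb10. At day 5 they were Ndufa3, Ndufa6, Ndufa13, Ndufb8, Ndufb9, Ndufb10 and Ndufs5. By a second probe set, Ndufb11 and Ndufc1 also lay over 2-fold above cycling myoblasts on both scales. The differences were 1.08 and 1.24 at day 2 and 1.07 and 1.88 at day 5 for Ndufb11. For Ndufc1 they were 1.14 and 1.29 at day 2 and 1.04 and 1.84 at day 5. These second probe sets were not tested on their own.

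Ndufb10, an accessory subunit of the distal membrane arm, had the largest day 2 change of all 43 genes. Ndufb10 started close to the array median, at the 52.0th percentile in cycling myoblasts (median of the 43 genes, 86.3rd). Its deposited values were 4.49 on all 3 arrays in cycling myoblasts, 6.46, 6.46 and 6.47 in day 2 myotubes and 5.79, 5.77 and 5.79 in day 5 myotubes. Its log2FC was 1.97 ± 0.00604 in the deposited values and 2.02 ± 0.00987 on the common scale at day 2 (limma adjusted p 3.64e-14 and 3.31e-13), and 1.30 ± 0.00604 in the deposited values and 2.02 ± 0.00987 on the common scale at day 5. The 3 groups stood far apart as deposited, with day 2 highest. Ndufb8, in the same part of the complex and often used as a marker of assembled complex I, had 7.27, 7.35 and 7.43 in cycling myoblasts, 8.74 on all 3 arrays in day 2 myotubes and 8.45, 8.43 and 8.46 in day 5 myotubes. For Ndufb8 the log2FC over cycling myoblasts was 1.38 ± 0.0373 in the deposited values and 1.59 ± 0.031 on the common scale at day 2, and 1.10 ± 0.0373 in the deposited values and 1.99 ± 0.031 on the common scale at day 5. The day 2 arrays were again the highest as deposited and the cycling arrays the lowest.

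Ndufb9, a small protein of the LYR family that binds the mitochondrial acyl carrier protein, had 8.08, 8.26 and 8.31 in cycling myoblasts, 9.35 on all 3 arrays in day 2 myotubes and 9.48, 9.48 and 9.48 in day 5 myotubes. Ndufb9 had a fitted log2FC of 1.13 ± 0.0554 in the deposited values and 1.29 ± 0.0465 on the common scale in day 2 myotubes, and 1.26 ± 0.0554 in the deposited values and 2.06 ± 0.0465 on the common scale in day 5 myotubes. Day 5 was the high group here on either scale, and the first cycling array the low one. Ndufb5, with YY1 letters at 2 places of its upstream window, had 8.92, 9.04 and 9.25 in cycling myoblasts, 10.23, 10.23 and 10.24 in day 2 myotubes and 9.93 on all 3 arrays in day 5 myotubes. Its log2FC was 1.16 ± 0.075 in the deposited values and 1.31 ± 0.0628 on the common scale at day 2, and 0.86 ± 0.075 in the deposited values and 1.55 ± 0.0628 on the common scale at day 5. The cycling arrays were spread widely, while the arrays of each myotube group hardly differed.

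Ndufa6, the LYR protein of the peripheral arm, had 6.90, 7.19 and 7.31 in cycling myoblasts, 8.35, 8.35 and 8.46 in day 2 myotubes and 8.41, 8.40 and 8.40 in day 5 myotubes. For Ndufa6 the log2FC over cycling myoblasts was 1.26 ± 0.101 in the deposited values and 1.48 ± 0.0915 on the common scale at day 2, and 1.27 ± 0.101 in the deposited values and 2.17 ± 0.0915 on the common scale at day 5. Both myotube groups overlapped as deposited and lay over 1 log2 unit above every cycling array. Ndufs4, an N module subunit whose loss causes a Leigh-like disease in mice, had 8.97, 9.04 and 9.04 in cycling myoblasts, 10.18, 10.18 and 10.17 in day 2 myotubes and 9.74, 9.74 and 9.74 in day 5 myotubes. Ndufs4 had a fitted log2FC of 1.16 ± 0.0202 in the deposited values and 1.31 ± 0.00948 on the common scale in day 2 myotubes, and 0.72 ± 0.0202 in the deposited values and 1.45 ± 0.00948 on the common scale in day 5 myotubes. It was highest at day 2 as deposited, and the groups did not overlap. Ndufa11, a membrane arm subunit, had 7.63, 7.65 and 7.70 in cycling myoblasts, 8.79 on all 3 arrays in day 2 myotubes and 8.45, 8.45 and 8.49 in day 5 myotubes. Its log2FC was 1.14 ± 0.0198 in the deposited values and 1.32 ± 0.0146 on the common scale at day 2, and 0.81 ± 0.0198 in the deposited values and 1.67 ± 0.0146 on the common scale at day 5. A second probe set of Ndufa11 moved the same way.

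Ndufa13, known also as GRIM-19 and placed in the proximal membrane arm, had the largest day 5 change of the 43 genes on the common scale. Its deposited values were 6.39, 6.38 and 6.38 in cycling myoblasts, 7.10 on all 3 arrays in day 2 myotubes and 7.67 on all 3 arrays in day 5 myotubes. For Ndufa13 the log2FC over cycling myoblasts was 0.72 ± 0.00144 in the deposited values and 0.97 ± 0.00817 on the common scale at day 2, and 1.29 ± 0.00144 in the deposited values and 2.22 ± 0.00817 on the common scale at day 5 (limma adjusted p 6.51e-17 and 5.39e-14). Each time point was above the one before, with next to no spread between arrays. Ndufa3, of the same membrane part, had 8.14, 8.20 and 8.41 in cycling myoblasts, 9.13 on all 3 arrays in day 2 myotubes and 9.36 on all 3 arrays in day 5 myotubes. Ndufa3 had a fitted log2FC of 0.88 ± 0.066 in the deposited values and 1.02 ± 0.0598 on the common scale in day 2 myotubes, and 1.11 ± 0.066 in the deposited values and 1.91 ± 0.0598 on the common scale in day 5 myotubes. Its groups followed the same order, with the third cycling array above the other 2. Ndufs5, on the intermembrane space side, had 7.29, 7.69 and 8.02 in cycling myoblasts, 8.53, 8.53 and 8.48 in day 2 myotubes and 8.60, 8.70 and 8.87 in day 5 myotubes. Its log2FC was 0.85 ± 0.18 in the deposited values and 1.03 ± 0.175 on the common scale at day 2, and 1.05 ± 0.18 in the deposited values and 1.92 ± 0.175 on the common scale at day 5. It had the largest spread of the 43 genes in cycling myoblasts (SD 0.366) and at day 5 (SD 0.138), and its day 5 change fell below 2-fold as deposited (log2FC 0.86) without the first cycling array and (0.98) without the third day 5 array. RefSeq also lists a pseudogene of Ndufs5.

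Ndufb3, of the distal membrane arm, was the accessory subunit that was not called higher at either time. Its deposited values were 7.03, 6.98 and 7.04 in cycling myoblasts, 6.66, 6.76 and 6.76 in day 2 myotubes and 6.72, 6.69 and 6.72 in day 5 myotubes. For Ndufb3 the log2FC over cycling myoblasts was -0.29 ± 0.0296 in the deposited values and -0.013 ± 0.0299 on the common scale at day 2, and -0.30 ± 0.0296 in the deposited values and 0.66 ± 0.0299 on the common scale at day 5. The cycling arrays were the high ones as deposited, and day 5 was the high group on the common scale.

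The other 17 accessory subunits were all called higher at day 2, with log2FC between 0.16 (Ndufa2) and 0.93 (Ndufb11) as deposited and between 0.30 (Ndufa2) and 1.10 (Ndufa5) on the common scale. At day 5, 13 of these 17 were called higher. They included Ndufb11 (log2FC 0.92 and 1.68), Ndufa9, which lies at the junction of the arms (0.65 and 1.39), Ndufa10 (0.65 and 1.27) and Ndufa1 (0.62 and 1.52). Ndufab1, the mitochondrial acyl carrier protein that also serves fatty acid synthesis, stood at 0.40 and 0.51 at day 2 and 0.22 and 0.96 at day 5. The 4 others, Ndufa7 (0.021 and 0.98), Ndufa8 (0.00076 and 0.77), Ndufb2 (-0.016 and 0.97) and Ndufc2 (0.12 and 0.87), were close to the cycling level as deposited and passed the test on the common scale alone.

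Calls of small size were lost or gained when 1 array was left out. Ndufa7 at day 2 (log2FC 0.25 and 0.51) had limma adjusted p of 0.0815 as deposited without the second cycling array, and also lost its call when any 1 of the 6 myotube arrays was left out, while its deposited log2FC stayed at 0.25 to 0.26. Ndufa12 at day 5 (0.27 and 1.15) had an adjusted p of 0.109 without the second cycling array, and lost its call without the third or without any 1 day 5 array, with a deposited log2FC of 0.22 to 0.29. Ndufc2 at day 5 passed as deposited without the first cycling array (log2FC 0.051, adjusted p 0.00201) and without the third (0.17, adjusted p 0.0299). Ndufa12, Ndufab1, Ndufs6 and Ndufa11 have pseudogenes or copies listed in RefSeq, so their signal may include another locus.

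By position in the complex, 30 of the 34 subunits were assigned to a module. Among the 4 modules the distal membrane members had the highest medians at day 2. The 9 measured distal members had a median log2FC of 0.93 and 1.07, with 8 called higher. The 8 proximal members had 0.70 and 0.87, with 8 called higher. The 4 members of the Q module had 0.80 and 0.96 and the 9 of the N module 0.49 and 0.69, with all called higher in both. At day 5 the medians were 0.86 and 1.55 for the distal part, 0.64 and 1.45 for the proximal part, 0.77 and 1.56 for the Q module and 0.30 and 1.15 for the N module, which was the lowest at both times on both scales. The 4 subunits left without a module (Ndufa6, Ndufa9, Ndufa11, Ndufab1) had 0.97 and 1.14 at day 2 and 0.73 and 1.53 at day 5, with all called higher at both times. A difference between modules was not tested, since the genes share the same arrays.

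The 7 assembly factors did not move as one. At day 2, 5 were called higher and 1 lower (median log2FC 0.17 and 0.42), and at day 5, 3 were called higher and 1 lower (median -0.25 and 0.69). Of all genes tested 42.8% were called higher and 37.4% lower at day 2, and 29.7% higher and 38.1% lower at day 5, so the 3 of 7 (42.9%) called higher at day 5 are not far from the share of all genes. Ndufaf3 was the one that rose at least 2-fold, and Ndufaf2 the one that fell.

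Ndufaf3 and Ndufaf4 bind each other and act early in building the Q module. Ndufaf3 had deposited values of 6.30 on all 3 arrays in cycling myoblasts, 7.69 on all 3 arrays in day 2 myotubes and 7.47 on all 3 arrays in day 5 myotubes. Ndufaf3 had a fitted log2FC of 1.39 ± 5.78e-05 in the deposited values and 1.64 ± 0.00888 on the common scale in day 2 myotubes, and 1.17 ± 5.78e-05 in the deposited values and 2.09 ± 0.00888 on the common scale in day 5 myotubes (limma adjusted p 1.03e-13 on the common scale). The arrays of each group were identical, and both myotube groups stood over 1 log2 unit above cycling myoblasts. Ndufaf4 had 7.27 on all 3 arrays in cycling myoblasts, 7.19 on all 3 arrays in day 2 myotubes and 6.64, 6.65 and 6.65 in day 5 myotubes. Its log2FC was -0.076 ± 0.00382 in the deposited values and 0.16 ± 0.00874 on the common scale at day 2, and -0.62 ± 0.00382 in the deposited values and 0.34 ± 0.00874 on the common scale at day 5. It passed the test in opposite directions on the scales, lower as deposited and higher on the common scale, and is therefore not called.

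Ndufaf2, a relative of the subunit Ndufa12 that holds its place before the N module is added, was the gene called lower at both times. Its deposited values were 7.19 on all 3 arrays in cycling myoblasts, 6.44, 6.44 and 6.56 in day 2 myotubes and 5.82 on all 3 arrays in day 5 myotubes. Its log2FC was -0.71 ± 0.0318 in the deposited values and -0.43 ± 0.0293 on the common scale at day 2 (limma adjusted p 4.56e-07 and 2.36e-06), and -1.37 ± 0.0318 in the deposited values and -0.40 ± 0.0293 on the common scale at day 5 (adjusted p 7.99e-09 and 3.33e-06). The cycling arrays were above all myotube arrays on both scales. Ndufa12 itself had 7.85, 7.53 and 7.56 in cycling myoblasts, 8.06, 8.06 and 8.29 in day 2 myotubes and 7.89, 7.93 and 7.93 in day 5 myotubes, with the first cycling array close to the day 5 level.

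Ndufaf1, part of the assembly complex that builds the membrane arm, had 7.47 on all 3 arrays in cycling myoblasts, 8.33 on all 3 arrays in day 2 myotubes and 7.56 on all 3 arrays in day 5 myotubes. For Ndufaf1 the log2FC over cycling myoblasts was 0.87 ± 5.78e-05 in the deposited values and 1.07 ± 0.0122 on the common scale at day 2, and 0.094 ± 5.78e-05 in the deposited values and 0.99 ± 0.0122 on the common scale at day 5. As deposited it stood out at day 2 and was near the cycling level at day 5. Ndufaf5, a hydroxylase of Ndufs7, had 5.33 on all 3 arrays in cycling myoblasts, 5.66 on all 3 arrays in day 2 myotubes and 5.08 on all 3 arrays in day 5 myotubes. Ndufaf5 had a fitted log2FC of 0.33 ± 5.78e-05 in the deposited values and 0.62 ± 0.00411 on the common scale in day 2 myotubes, and -0.25 ± 5.78e-05 in the deposited values and 0.59 ± 0.00411 on the common scale in day 5 myotubes. It was called higher at day 2, and at day 5 the scales gave opposite directions.

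Ndufaf6, which acts early in assembly, had 4.88 on all 3 arrays in cycling myoblasts, 5.01 on all 3 arrays in day 2 myotubes and 4.95 on all 3 arrays in day 5 myotubes. Its log2FC was 0.13 ± 5.78e-05 in the deposited values and 0.35 ± 0.00335 on the common scale at day 2, and 0.074 ± 5.78e-05 in the deposited values and 0.80 ± 0.00335 on the common scale at day 5. The deposited differences were small, and the arrays of a group were identical on that scale. Ndufaf7, a methyltransferase, had 7.14 on all 3 arrays in cycling myoblasts, 7.31 on all 3 arrays in day 2 myotubes and 6.87 on all 3 arrays in day 5 myotubes. For Ndufaf7 the log2FC over cycling myoblasts was 0.17 ± 5.78e-05 in the deposited values and 0.42 ± 0.0112 on the common scale at day 2, and -0.27 ± 5.78e-05 in the deposited values and 0.69 ± 0.0112 on the common scale at day 5. At day 5 it was the low group as deposited and the high group on the common scale.

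**Figure D3:**
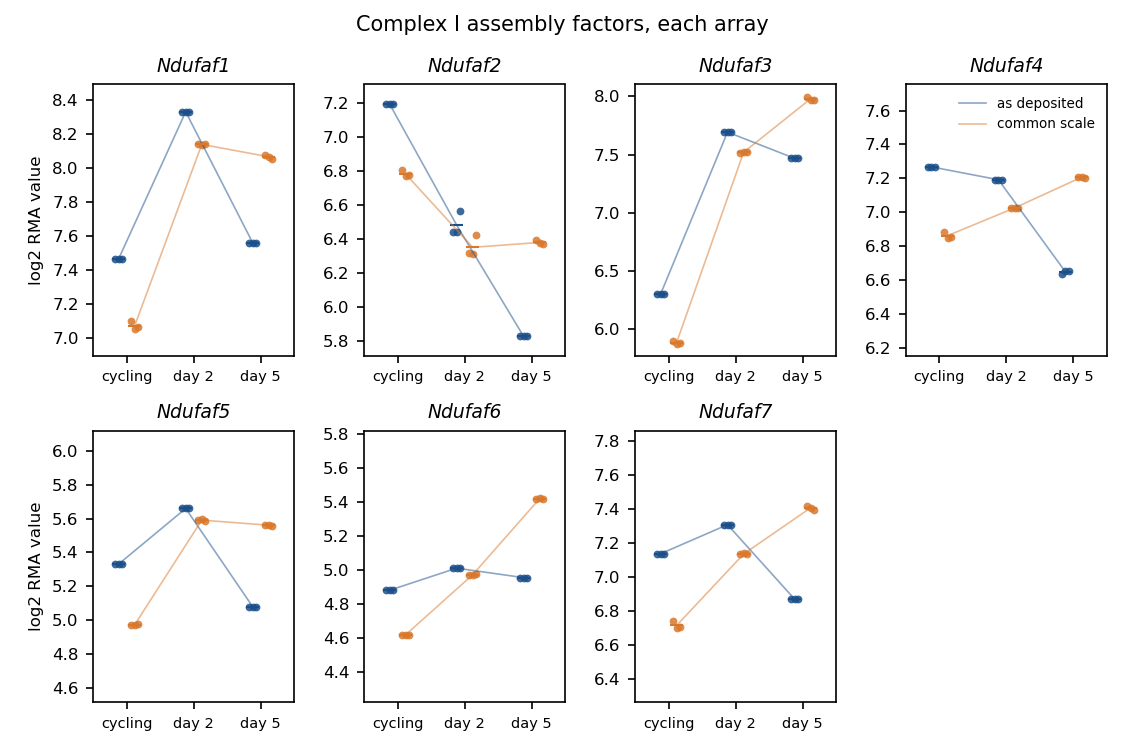
Log2 RMA values of the 7 assembly factors on each array (points, horizontal bars are group means) in cycling myoblasts, day 2 and day 5 myotubes, as deposited (blue) and on the common scale (orange). Ndufaf3 is higher and Ndufaf2 lower in both myotube groups on both scales, while Ndufaf4, Ndufaf5 and Ndufaf7 at day 5 lie on opposite sides of the cycling level on the 2 scales.

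Ndufa4, now assigned to cytochrome c oxidase, changed little. Its deposited values were 11.01, 11.12 and 11.29 in cycling myoblasts, 11.31 on all 3 arrays in day 2 myotubes and 11.30, 11.19 and 11.11 in day 5 myotubes. Ndufa4 had a fitted log2FC of 0.17 ± 0.0799 in the deposited values and 0.25 ± 0.0635 on the common scale in day 2 myotubes, and 0.063 ± 0.0799 in the deposited values and 0.52 ± 0.0635 on the common scale in day 5 myotubes. The cycling and day 5 arrays overlapped as deposited, and its day 2 difference passed on both scales without the third cycling array (log2FC 0.25 and 0.32). Ndufa4l2, a relative of Ndufa4 induced by low oxygen in several cell types, had 3.89, 3.74 and 3.74 in cycling myoblasts, 4.23 on all 3 arrays in day 2 myotubes and 4.39 on all 3 arrays in day 5 myotubes and was called higher at both times (log2FC 0.43 and 0.42 at day 2, 0.60 and 1.01 at day 5). Its lower levels were under the array median, where the values are not shown to lie above background.

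Between day 5 and day 2 myotubes, the direction for most of the 43 genes depended on the scale. On both scales 6 were called higher, against 16.2% of all genes tested, and 2 lower, against 40.6%. None changed at least 2-fold, against 0.766% of all genes that rose and 3.67% that fell by that much. The median log2FC was -0.16 and 0.45, against -0.40 and 0.055 over all genes. Of the 43, 27 were lower as deposited and higher on the common scale, a count not made over all genes. The test was passed in both directions by 19 of the 43, all among these 27, against 4699 of the 16582 genes tested. The array medians were lower at day 5 (3.98 to 3.99) than at day 2 (4.26) as deposited. The common scale moved the 43 genes up by a median of 0.66 relative to the deposited log2FC, and all genes tested by 0.50. For the 27 genes that lay on opposite sides, the direction after day 2 cannot be told from these values.

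The genes called higher at day 5 than at day 2 were the core subunits Ndufs7 (log2FC 0.24 ± 0.0272 in the deposited values and 0.79 ± 0.0162 on the common scale) and Ndufv2 (0.16 and 0.74), the accessory subunits Ndufa13 (0.57 ± 0.00144 in the deposited values and 1.25 ± 0.00817 on the common scale), Ndufa3 (0.23 and 0.89) and Ndufa1 (0.14 and 0.82), and Ndufa4l2 (0.16 and 0.59). Ndufv2 had limma adjusted p of 0.0269 as deposited, and lost its call without the first or second day 2 array (0.0706 each) or without any 1 day 5 array (0.0508 to 0.069). Ndufb9 passed without the first cycling array (log2FC 0.13) or the third (0.13, adjusted p 0.0334), and Ndufa2 without the first (log2FC 0.042, adjusted p 0.0277). The 2 called lower were the assembly factors Ndufaf1 (-0.77 and -0.073) and Ndufaf5 (-0.58 and -0.030). All 7 assembly factors were lower at day 5 than at day 2 as deposited, by -0.056 (Ndufaf6) to -0.77 (Ndufaf1). On the common scale 4 of them passed as higher. Of all genes tested, 77.8% passed as lower as deposited and 49.9% as higher on the common scale, with medians of -0.40 and 0.055. A fall as deposited is therefore not particular to these 7.

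**Figure D4:**
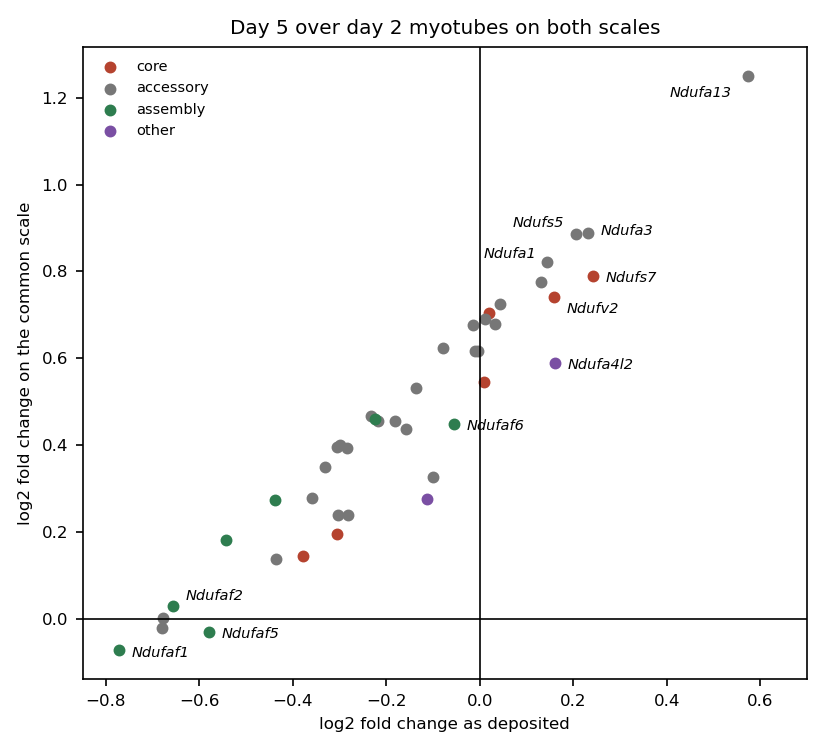
Log2 fold change of day 5 over day 2 myotubes as deposited (horizontal) and on the common scale (vertical), 1 point for each of the 43 genes, coloured by class. Ndufa13 lies farthest to the upper right (0.57 and 1.25), Ndufaf1, Ndufaf5 and Ndufa8 lie below 0 on both axes, and 27 points lie in the upper left, lower as deposited and higher on the common scale.

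Other genes of complex I were read from a list of 18, of which 11 had a probe set of their own. Of the mitochondrially encoded core subunits 1 of 7 was measured, ND3, and it was not called (log2FC 0.022 and 0.13 at day 2, -0.10 and 0.44 at day 5). Of 10 further assembly factors measured, 7 were called higher and 2 lower at day 2, and 4 higher and 1 lower at day 5, against 42.8% higher and 37.4% lower of all genes at day 2 and 29.7% and 38.1% at day 5. Ecsit, a partner of Ndufaf1 in the membrane arm assembly complex, moved most (log2FC 1.19 and 1.44 and then 0.97 and 1.89). Its further partners Tmem126b (0.36 and 0.61), Acad9 (0.073 and 0.26) and Timmdc1 (0.077 and 0.23) were called higher at day 2. At day 5 Tmem126b was called higher (0.35 and 1.29), while Acad9 (-0.81 and 0.075) and Timmdc1 (-0.49 and 0.37) passed in opposite directions on the scales. Acad9 was called lower at day 5 than at day 2 (-0.88 and -0.19). Those called lower at day 2 were Nubpl, which delivers iron-sulfur clusters to the complex (-0.51 and -0.42), and Tmem186 (-0.67 and -0.34). The mean of Nubpl at day 2 was 4.00, under the array median of 4.26.

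Most genes of the other complexes of oxidative phosphorylation were also called higher in myotubes. Of 40 measured genes of complexes II to V, 40 were called higher at day 2 (median log2FC 0.82 and 0.97) and 36 higher and 2 lower at day 5 (median 0.53 and 1.21), against 42.8% higher at day 2 and 29.7% higher and 38.1% lower at day 5 of all genes tested, with medians of -0.014 and 0.087 at day 2 and -0.37 and 0.17 at day 5. No difference between the complexes was tested.

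**Figure D5:**
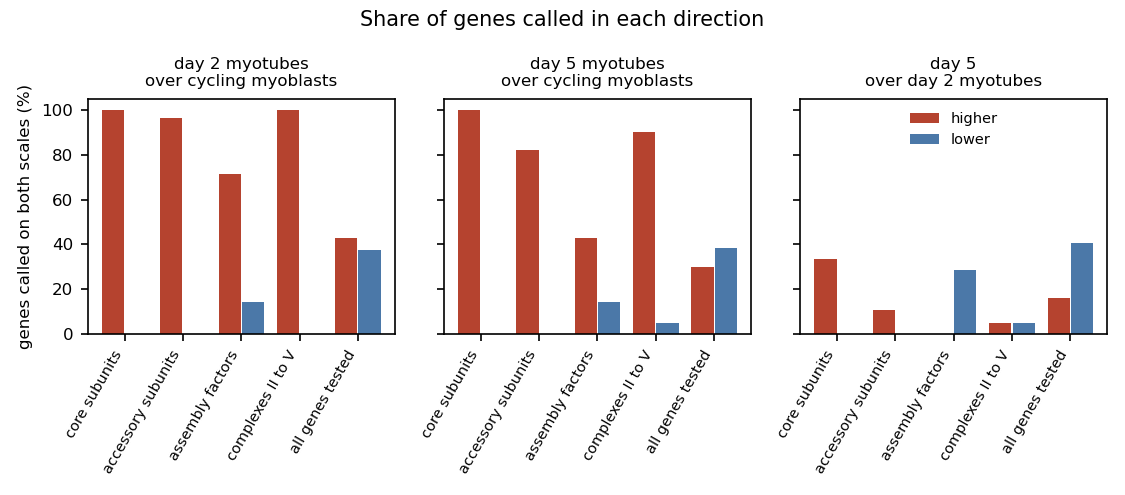
Share of genes called higher (red) and lower (blue) on both scales, in percent, for core subunits (6), accessory subunits (28), assembly factors (7), complexes II to V (40) and all genes tested (16582), in each of the 3 comparisons. Core and accessory subunits are called higher in 82.1% or more at day 2 and day 5 over cycling myoblasts, against 42.8% and 29.7% of all genes, and assembly factors are called in both directions.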

How the data were processed

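Gene expression was measured in 9 arrays of mouse primary myoblasts and myotubes. The deposited values are log2 expression values made with RMA, run for each replicate set, per the design text and the submitters' processing notes. Software version and genome build are not given in the sources used here. Arrays had been normalized for each time point apart: sorted values of 2 arrays differed by at most 0.0251 on average within a time point and by at least 0.188 between time points.

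Of 35556 probe sets, 21789 named 1 gene, 1621 several and 12146 none in the platform annotation. Entrez identifiers of 21698 matched RefSeq (GRCm38.p6, used for names), and 0 symbols changed. The probe set with the highest mean stood for its gene, and 16582 of 19938 genes lay above the 30th percentile of their array on at least 3 arrays. limma 3.58.1 (R 4.3.3; lmFit, then eBayes without trend or robust estimation) fitted 1 mean per time point over all 9 arrays, as deposited and after quantile normalization over all 9 arrays, with Benjamini-Hochberg adjustment over the 16582 genes and a threshold of 0.05. A 2-fold change means an absolute log2FC of at least 1 on both scales. An array gives no count of molecules, so the number of arrays limits the precision. Alternatives were centring each array on its median, other filters, the mean of all probe sets of a gene, trend and robust estimation, a replicate block and leaving out each array. Counts on both scales without each array or with the block were added after the data were seen.

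Full values are given for the core subunits, the assembly factors, the 5 highest and 5 lowest log2FC at day 5 on the common scale and every gene changed at least 2-fold. The genes and lists were chosen with earlier results of these data known. Of 54 RefSeq genes with an Nduf symbol, 3 probe sets name an Nduf gene together with another gene and were kept out of the comparisons. Promoter windows and their sequences are from RefSeq, assembly GRCm38.p6.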

Additional observations from a re-analysis of the deposited data

Results flagged for a closer look

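A set of 3 probe sets outside the comparisons names an Nduf gene together with a copy of it, and their signal was above the level in cycling myoblasts. They were flagged for a difference above 0 at day 5 on both scales, which all 3 such probe sets had. The probe set naming ND6 together with Acsm2 did not have it. The probe set shared by Ndufs5 and its pseudogene Ndufs5-ps had 7.62, 7.62 and 7.63 at day 5, against 6.86, 6.94 and 6.94 in cycling myoblasts, a difference of 0.71 in the deposited values and 1.64 on the common scale. The first probe set shared by Ndufb4b and Ndufb4 had 8.94, 8.85 and 8.85 at day 5, against 7.85, 7.90 and 8.13 in cycling myoblasts, a difference of 0.914 in the deposited values and 1.75 on the common scale. The second had 9.27, 9.17 and 9.17 at day 5, against 8.13, 8.24 and 8.52 in cycling myoblasts, a difference of 0.912 in the deposited values and 1.70 on the common scale. The day 5 and cycling arrays did not overlap for any of the 3, and the share of all probe sets without such overlap was not counted. Which of the loci gave the signal was not tested.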

How the results depend on the processing

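Most differences between settings came with the scale. At day 2, 39 genes were higher as deposited and 41 on the common scale, and 3 and 1 were lower. Of all genes tested, 45.8% and 52.1% were higher and 47.5% and 39.3% lower. Members of the 43 at least 2-fold higher were 8 and 14. The median log2FC of the 43 was 0.68 and 0.84, with 0.76 after centring each array on its median. At day 5, 5 genes were lower as deposited, 2 after centring and 1 on the common scale. Of all genes, 65.5%, 48.6% and 38.2% were lower in that order. Members of the 43 at least 2-fold higher were 8, 18 and 30. Those at least 2-fold lower were 1 as deposited and 0 on the common scale, and the median was 0.60, 0.95 and 1.27. Between day 5 and day 2, 6 genes were higher as deposited, 23 after centring and 38 on the common scale. The lower ones were 24, 10 and 2. Of all genes, 16.2%, 35.1% and 49.9% were higher and 77.8%, 55.9% and 40.6% lower in that order. The 6 higher as deposited are near the share of all genes. Members of the 43 at least 2-fold higher were 0 as deposited and 1 on the common scale. Their median changed sign, with -0.16 as deposited, 0.12 after centring and 0.45 on the common scale. Shares of all genes changed at least 2-fold on a single scale were not counted. Centring shifts every gene of an array alike, while quantile normalization reshapes the distribution: between day 5 and cycling myoblasts it moved the log2FC of single genes among the 43 by 0.41 to 0.98, and between day 5 and day 2 it moved the 43 by a median of 0.66 and all genes by 0.50. Which scale is right cannot be told from these values.

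By gene, the deposited direction turned on the common scale for 1 gene at day 2, Ndufaf4 0.16. It turned for 5 at day 5, Ndufaf4 0.34, Ndufaf5 0.59, Ndufaf7 0.69, Ndufb2 0.97 and Ndufb3 0.66 (log2FC on the common scale). Between day 5 and day 2 it turned for 27, Ndufa10 0.33, Ndufa11 0.35, Ndufa12 0.45, Ndufa4 0.28, Ndufa5 0.40, Ndufa7 0.47, Ndufa9 0.44, Ndufab1 0.46, Ndufaf2 0.029, Ndufaf3 0.46, Ndufaf4 0.18, Ndufaf6 0.45, Ndufaf7 0.27, Ndufb10 0.0017, Ndufb11 0.62, Ndufb2 0.40, Ndufb3 0.68, Ndufb5 0.24, Ndufb6 0.24, Ndufb8 0.39, Ndufc1 0.62, Ndufc2 0.28, Ndufs1 0.15, Ndufs3 0.19, Ndufs4 0.14, Ndufs6 0.53 and Ndufv3 0.62. After centring it turned for 4 at day 5, Ndufaf5 0.10, Ndufaf7 0.086, Ndufb2 0.34 and Ndufb3 0.049, and for 13 between day 5 and day 2, Ndufa10 0.18, Ndufa12 0.060, Ndufa4 0.17, Ndufa7 0.044, Ndufa9 0.12, Ndufab1 0.096, Ndufaf3 0.053, Ndufaf6 0.22, Ndufb11 0.27, Ndufb3 0.26, Ndufc1 0.27, Ndufs6 0.14 and Ndufv3 0.20. Leaving out 1 array turned 3 differences near 0 at day 5, Ndufa4 (-0.0043 to 0.14), Ndufa7 (-0.087 to 0.12) and Ndufa8 (-0.0064 to 0.012), and 5 between day 5 and day 2, Ndufa6 (-0.0086 to 0.048), Ndufb11 (-0.020 to 0.0063), Ndufb3 (-0.046 to 0.00016), Ndufc1 (-0.034 to 0.026) and Ndufv1 (-0.0099 to 0.018).

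The counts on both scales moved less. Leaving out each array in turn gave 38 to 40 genes higher at day 2, 32 to 34 at day 5 and 5 to 8 between them, with 8 to 10, 7 to 9 and 0 at least 2-fold higher, and the day 2 median as deposited ran from 0.63, without the first cycling array, to 0.71. With no filter, the filter at the 50th percentile, the mean of all probe sets, and trend and robust estimation, each of the 43 genes kept its direction and side of the threshold as deposited in all 3 comparisons. Same-numbered arrays did not deviate together (r of -0.038 to 0.11 over 9 pairs, 1 of them over 0.1). For arrays of different number r was -0.15 to 0.16 over 18 pairs. Since many values were identical within a group, these correlations cannot show whether the number is a pairing. With the number as a replicate block, 38 genes were higher on both scales at day 2 and 32 at day 5, since Ndufa7 at day 2 (limma adjusted p 0.056) and Ndufa12 at day 5 (0.0696) lost their calls. Values under the array median, as for Ndufa4l2, are not shown to lie above background, and 3 arrays a group limit what a single array can decide.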
